A study of Homo sapiens with 7 samples.

Results

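The 100 kb of chromosome 16 from 695000 to 795000 on hg19 lie in band 16p13.3 and are known to hold closely packed genes. The 10 considered here are WDR90, RHOT2, RHBDL1, STUB1, JMJD8, WDR24, FBXL16, METRN, CCDC78 and HAGHL. In C4-2B cells this window carried a dense run of peaks for HOXB13 acetylated at lysine 13 (HOXB13-K13ac). Its members are the deposited peaks that share at least 1 bp with the window. They number 24 of 41303 peaks in replicate 1, 18 of 45216 in replicate 2, 22 of 18232 in replicate 3 and 23 of 36205 in a list whose name matches no library (the unassigned list). Among runs of sites with at least 13 sites, the window was chosen by its number of replicate 3 peaks. The values that chose it are therefore the replicate 3 peaks and the sites shared between libraries, and all values of the 3 replicate lists below are a description with no test.

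C4-2B is an established castration-resistant prostate cancer line derived from LNCaP. All 7 libraries are from C4-2B cells kept in serum that charcoal had stripped of most steroid hormones, and the labels name no other treatment: 3 precipitations with an antibody against HOXB13-K13ac, 2 with control IgG and 2 of input chromatin. Replicate 1 has the library series number 2898, and replicates 2 and 3 have 3047. A single cell line was used, and the labels do not say whether the replicates came from separate cultures. Of the 6 peak lists, the replicate 1 list does not name its control, replicates 2 and 3 each have a list against input and another against IgG, and the unassigned list was called against input. Lists were matched to libraries by spelling, and the names of replicates 1 and 3 differ by 1 punctuation mark. The lists hold no read counts, so the depth of each library is unknown.

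HOXB13 is a homeodomain transcription factor of the posterior HOX group that is kept on in the adult prostate, where it binds beside the androgen receptor. Its homeodomain recognises AT-rich DNA. Acetylation of a lysine outside the homeodomain is a post-translational mark, which the antibody used here was made to detect.

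The 10 genes have varied known roles. STUB1 (also called CHIP) is a co-chaperone and ubiquitin ligase that tags misfolded clients of heat shock proteins, and FBXL16 is an F-box protein of the family that brings substrates to cullin ubiquitin ligases. RHOT2 (Miro2) is a GTPase of the outer mitochondrial membrane that links mitochondria to their transport motors. WDR90 is a microtubule protein of the centriole wall, and CCDC78 takes part in centriole amplification in multiciliated cells. WDR24 is a subunit of GATOR2, which relays amino acid supply to mTORC1. RHBDL1 belongs to the rhomboid intramembrane proteases, METRN is a secreted factor of neural development, JMJD8 is a JmjC-domain protein of the endoplasmic reticulum, and HAGHL resembles the glyoxalase enzyme HAGH. In the RefSeq order of GRCh38.p14, 13 genes run from WDR90 to HAGHL, 11 of them protein coding. The 3 that are not among the 10 are ANTKMT, STUB1-DT and the pseudogene LOC102724984. Any genes of the window outside WDR90 to HAGHL were not listed. No gene coordinates on hg19 were used here, so no peak below is placed on a gene start, and whether these peaks lie at promoters was not tested.

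RefSeq promoter sequences (GRCh38.p14) were matched by symbol for 6 of the 10 genes, with 8 windows of 300 bases in all. STUB1, WDR24, FBXL16 and HAGHL were not matched. The first listed window of 4 genes is shown for the range it covers: RHOT2 and JMJD8 have ETS letters, METRN the highest GC content of the 8 and CCDC78 the lowest. Capitals mark matches on either strand to GGGCGG (bound by SP and KLF factors), CCGGAAG (ETS factors) and CCAAT (NF-Y). CACGTG (E-box) has no match in the 4 windows shown. Neighbouring or overlapping matches run together.
RHOT2: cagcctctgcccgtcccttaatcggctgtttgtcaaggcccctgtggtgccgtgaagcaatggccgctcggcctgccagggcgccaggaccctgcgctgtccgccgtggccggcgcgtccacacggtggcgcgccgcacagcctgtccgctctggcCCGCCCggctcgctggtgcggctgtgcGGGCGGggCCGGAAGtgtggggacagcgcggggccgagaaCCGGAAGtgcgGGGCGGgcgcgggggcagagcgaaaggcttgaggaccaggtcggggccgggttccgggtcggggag
JMJD8: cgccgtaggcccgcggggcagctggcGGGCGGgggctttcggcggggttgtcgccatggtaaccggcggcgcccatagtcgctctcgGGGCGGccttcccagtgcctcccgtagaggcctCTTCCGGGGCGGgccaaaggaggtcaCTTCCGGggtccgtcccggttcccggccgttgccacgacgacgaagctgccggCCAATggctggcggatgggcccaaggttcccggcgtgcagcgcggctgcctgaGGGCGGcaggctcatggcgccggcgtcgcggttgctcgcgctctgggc
METRN: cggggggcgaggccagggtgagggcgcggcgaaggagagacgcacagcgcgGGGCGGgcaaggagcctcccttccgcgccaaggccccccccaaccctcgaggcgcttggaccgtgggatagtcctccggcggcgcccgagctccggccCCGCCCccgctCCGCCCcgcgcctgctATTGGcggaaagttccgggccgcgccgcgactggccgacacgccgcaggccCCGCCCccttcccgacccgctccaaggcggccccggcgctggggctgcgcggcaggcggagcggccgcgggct
CCDC78: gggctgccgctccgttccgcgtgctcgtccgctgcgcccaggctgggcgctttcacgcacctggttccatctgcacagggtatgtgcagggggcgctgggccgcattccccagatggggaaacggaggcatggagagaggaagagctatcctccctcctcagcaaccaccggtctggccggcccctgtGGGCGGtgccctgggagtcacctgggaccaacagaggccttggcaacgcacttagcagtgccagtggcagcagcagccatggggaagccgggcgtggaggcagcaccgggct

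Most of these gene starts were rich in GC and CpG. The GC content was 74.7% in RHOT2, 74.3% in JMJD8, 79.7% in METRN and 68.0% in CCDC78, and the median of all 35116 promoters was 58.7%. The CpG ratio (observed over expected) was 1.03 in WDR90, 1.01 at the first and 0.44 at the second RHBDL1 start, 0.97 in JMJD8, 0.95 in METRN, 0.90 and 0.83 at the 2 overlapping RHOT2 windows, and 0.55 in CCDC78. Of the 8 windows, 6 (75.0%) exceeded 0.6, compared with 48.8% of all promoters. The overlapping RHOT2 windows are both counted in the 6, so the windows are not independent. The second RHBDL1 start and CCDC78 were below the all-promoter median of 0.58.

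**Figure D1:**
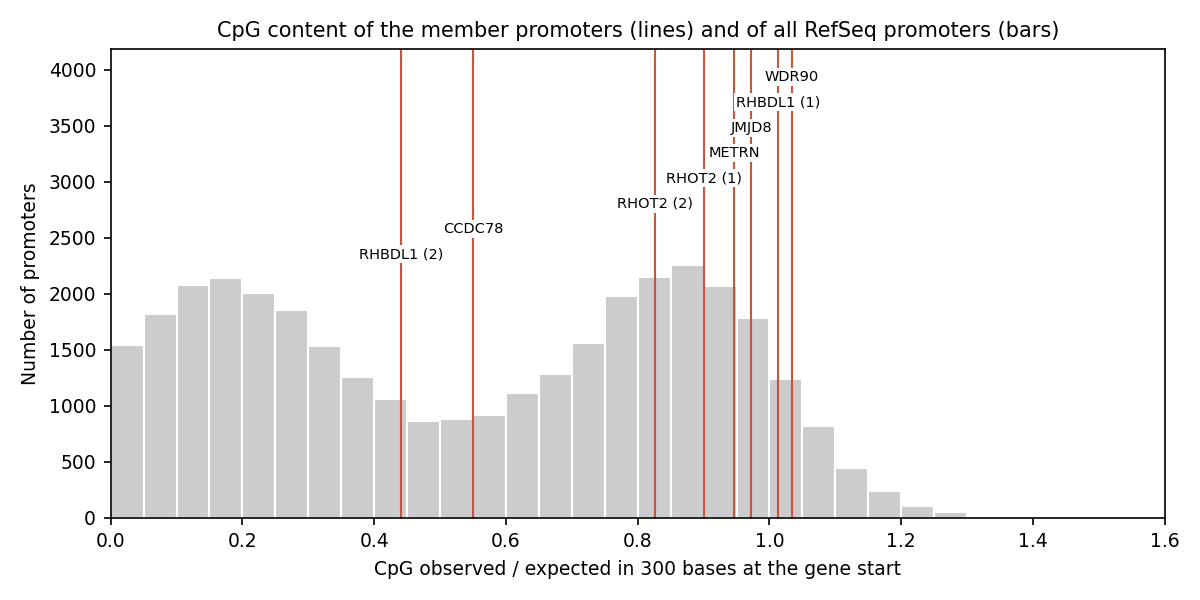
Bars count all RefSeq promoters (vertical axis) by the CpG observed over expected ratio of their 300 bases (horizontal axis), and lines give the 8 windows of 6 genes, numbered where a gene has 2. Of the lines, 6 lie at 0.83 or more, in the upper hump, and RHBDL1 (2) at 0.44 and CCDC78 at 0.55 lie in the dip between the humps.

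Of the motifs searched on both strands, GGGCGG was in 7 of 8 windows, of 5 genes, compared with 45.0% of all promoters. It occurred 4 times each in JMJD8 and METRN. All 8 windows have a higher GC content than the median promoter, and no share here was matched for GC. CCGGAAG was in the windows of RHOT2 and JMJD8, with 2 matches in each window, compared with 10.3% of all promoters. CCAAT was in 3 windows, of RHBDL1, JMJD8 and METRN (34.6% of all), and CACGTG in WDR90 alone (7.26% of all). The HOX letters CCAATAAA, CTCGTAAA and TTTATNG had 0 matches in the 8 windows and occurred in 0.93%, 0.14% and 9.73% of all promoters. The forkhead letters TGTTTAC (3.42% of all), the steroid receptor half-site AGAACA (14.8%), the TATA box TATAAA (11.5%) and the NRF1 motif (1.24%) also had 0. For letters this rare, 0 of 8 windows is near the background. A match is a run of letters and not a measured site. Absence from these windows says nothing about binding elsewhere in the 100 kb.

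The peaks fell into 28 merged regions, where peaks of the 3 replicate lists were joined when they shared at least 1 bp. Of these, 18 (64.3%, exact 95% binomial interval 44.1 to 81.4) had peaks of at least 2 libraries, called replicated sites here, beside 41.2% of the 65675 regions of the whole genome. All 3 libraries were present in 10 (35.7%, 18.6 to 55.9), beside 6.99% genome-wide. This count was 7 when summits were joined within 100 bp, and 2 when only peaks with a −log10 q of 5 or more were used. It was 0 when an overlap of 0.5 of both widths was required. That last rule is hard to meet here, since median peak widths were 226 bp in replicate 3 and 898.5 and 1056.5 bp in replicates 1 and 2. The number of sites of all 3 libraries described below thus depends on the matching rule and the authors' threshold. Replicates 1 and 2 alone shared 7 regions, replicates 2 and 3 alone shared 1, replicate 1 alone had 4 and replicate 3 alone had 6. No region was found in replicate 2 alone. These intervals cover counting error only, neighbouring peaks are not independent, and the window was chosen on these counts.

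**Figure D2:**
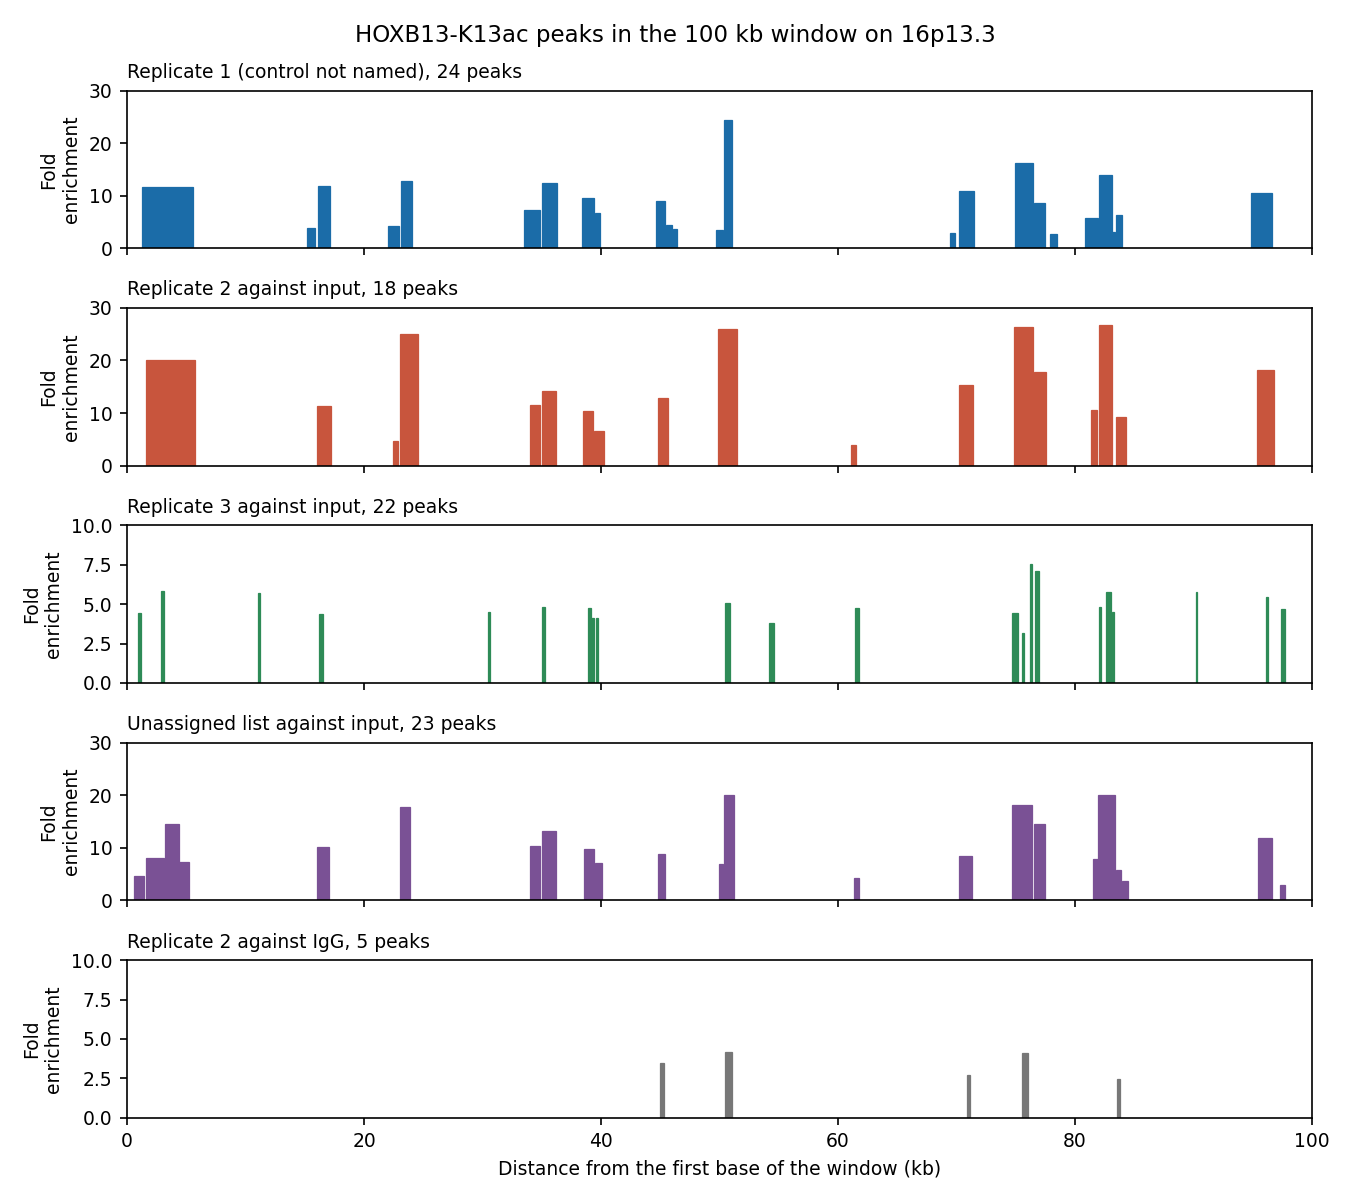
Each bar is a peak in the 100 kb window, drawn to its width along the horizontal axis (kb from the first base of the window) and to its fold enrichment on the vertical axis, with 1 panel per list and an axis to 30 or, for replicate 3 and the IgG list, to 10. Replicate 1, replicate 2 and the unassigned list share most of their blocks, with 4 low ones in replicate 1 alone, while the 22 peaks of replicate 3 are narrow and lower, and the 5 peaks against IgG lie on blocks of the other lists.

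Peaks of this window were broad in 2 libraries and narrow in replicate 3. Replicate 1 peaks had a median width of 898.5 bp (555 bp over the whole list), those of replicate 2 1056.5 bp (635 bp) and those of replicate 3 226 bp (235 bp). The window was chosen on replicated sites, and these merged sites had a median width of 1276.5 bp here and 1005 bp genome-wide. Peaks wider than 1000 bp made up 10 of 24 in replicate 1 (19.0% of the whole list), 10 of 18 in replicate 2 (26.5%) and 0 of 22 in replicate 3 (0.0329%). Narrow peaks were thus common to the whole replicate 3 list. Together the peaks covered 24.1%, 21.5% and 5.82% of the window. Replicate 3 had about as many peaks here as the other libraries but far less sequence under them.

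Fold enrichment is the authors' ratio of signal in a peak to its control, and its median in the window was above that of each whole list. In replicate 1 it ran from 2.77 to 24.3 with a median of 7.91, and the median of all peaks was 4.67. In replicate 2 it ran from 3.87 to 26.8 with a median of 13.5, against 6.50 in all. In replicate 3 it ran from 3.17 to 7.54 with a median of 4.76, against 4.40 in all. Peaks above their own list's median numbered 16 of 24, 16 of 18 and 17 of 22. The window was chosen on replicated sites, so the highest values at such sites are the closer comparison. Their medians in replicates 1, 2 and 3 were 10.6, 13.5 and 5.07 in the window and 5.83, 9.37 and 5.07 genome-wide. Replicate 3 thus had the same median here as at all replicated sites. The lists come from separate libraries of unknown depth, so their values stand side by side without a test between lists.

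By q-value, 21 of 24 replicate 1 peaks (80.7% of the whole list), 16 of 18 replicate 2 peaks (67.2%) and 19 of 23 unassigned peaks (72.7%) had a −log10 q of 5 or more. In replicate 3, 2 of 22 did (6.28% of its list). In the window the shares were 87.5% in replicate 1, 88.9% in replicate 2, 82.6% in the unassigned list and 9.09% in replicate 3. The replicate 3 share is near that of its list. With 18 to 24 peaks per list, the other differences rest on a few peaks and were not tested.

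At 10 sites there were peaks in all 3 libraries, and they are given in order along the chromosome with the highest fold enrichment of each library. The first, from 696277 to 700686, was the broadest replicated site of the window at 4410 bp. It had fold enrichments of 11.7 in replicate 1, 20.0 in replicate 2 and 5.81 in replicate 3. Replicates 1 and 2 each covered it with 1 peak of over 4 kb (4270 and 4110 bp), the unassigned list divided it into 3 peaks, and 1 further peak of that list touched its left end. In replicate 3 it was a single peak of 267 bp whose summit lay 1127 bp from that of replicate 1.

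The site from 711035 to 712185 had values of 11.9, 11.3 and 4.37 in replicates 1, 2 and 3. It lay 10348 bp after the first, just beyond the 10 kb used to stitch sites into runs, and so opens the run of 16 sites. Its 3 summits lay within 48 bp of each other.

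A trio of sites followed between 730007 and 735235. The site from 730007 to 731300 had 12.3, 14.3 and 4.81 in replicates 1 to 3. The site from 733393 to 734416 had 9.60, 10.4 and 4.76, and that from 734440 to 735235 had 6.69, 6.67 and 4.12. The last had the lowest value of the 10 sites in each library. Only 23 bp separated it from its neighbour. The unassigned peak of the neighbour, with 9.75, reached into its left end, and its own unassigned peak had 7.16. At 730007 the summits of replicates 1 and 2 were 2 bp apart.

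The highest enrichment of replicate 1 in the window was at the site from 744669 to 746487. Replicate 1 reached 24.3 there, replicate 2 reached 26.0 and replicate 3 reached 5.07. The replicate 1 peak, from 745385 to 746097, ranked 64th of 41303 by fold enrichment and had a −log10 q of 182. In replicate 2 the site ranked 1670th of 45216. In replicate 3 its peak ranked 5003rd of 18232, so the order of the sites was not the same in all libraries.

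Towards the high-coordinate end of the run, 3 more sites of all libraries lay between 769725 and 778355. From 769725 to 771497 the values were 16.3, 26.3 and 7.54, and 3 separate replicate 3 peaks lay in it. The adjacent site from 771569 to 772593 had 8.56, 17.8 and 7.10. The site from 777023 to 778355 had 13.9, 26.8 and 5.74, the highest of replicate 2. The 2 strongest replicate 3 peaks of the window were the neighbours at 771185 to 771380 (−log10 q of 6.94) and 771604 to 771969 (6.28), in the first and second of these sites. They were the only ones above a −log10 q of 5 in that list.

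The last site, from 789878 to 791774, had 10.6, 18.2 and 5.49. It lay 10536 bp after the run and was therefore not part of it. Over the 10 sites the replicate 1 median was 11.8, the replicate 2 median 18.0 and the replicate 3 median 5.28. The medians over all 4591 sites of 3 libraries in the genome were 10.6, 17.3 and 5.13. The medians in the window lay a little above those of the genome in each library.

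**Figure D3:**
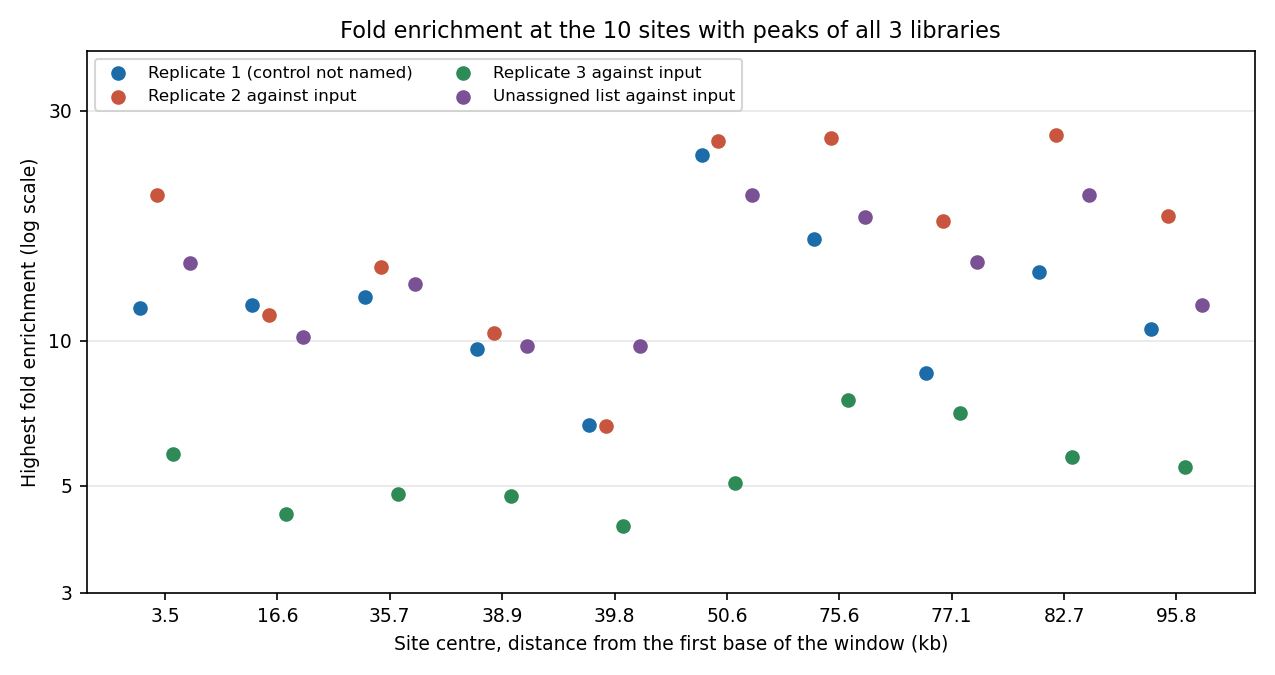
Each dot is the highest fold enrichment (log scale) of a list at one of the 10 sites of all 3 libraries, which are evenly spaced in order and labelled with the distance of the site centre from the first base of the window in kb. Replicate 3 (4.12 to 7.54) lies below every other list at each site, replicate 2 lies highest at 8 of them, and the unassigned dots at 38.9 and 39.8 kb are the same peak, that of the site at 38.9 kb.

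Replicates 1 and 2 ranked the sites alike. Across the 17 regions they shared, Spearman's rho of fold enrichment was 0.84, with replicate 2 higher at 15 of 17. Across 10 regions replicate 3 against replicate 1 gave 0.31, and across 11 regions against replicate 2 it gave 0.79. These are descriptions over neighbouring regions chosen for being shared. All points of a list share its library and its control. Summits of replicates 1 and 2 were a median of 61 bp apart and lay within 100 bp at 13 of 17 regions. For replicate 3 they lay within 100 bp of the replicate 1 summit at 8 of 10 regions and of the replicate 2 summit at 4 of 11.

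Another 8 replicated sites lacked 1 library. Replicates 1 and 2 alone shared the sites from 718009 to 719577, with 12.9 and 25.0, and from 765233 to 766508, with 10.9 and 15.3. The first was higher than 7 of the 10 sites of all 3 libraries in replicates 1 and 2, and replicate 3 had no peak there. The other 5 of that kind had 4.20 to 8.94 in replicate 1 and 4.61 to 12.8 in replicate 2. The region from 756092 to 756799 had replicates 2 and 3 only, with 3.87 and 4.75, and it was the only replicated site at which replicate 3 was higher than replicate 2.

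Of the 22 replicate 3 peaks, 16 (72.7%, exact 95% interval 49.8 to 89.3) touched a peak of replicate 1 or 2, beside 30.8% of the whole list. The window was chosen on shared sites and replicate 3 peaks, so a high share was selected for, and the interval does not allow for that. Wholly inside a replicate 1 peak were 12, and inside a replicate 2 peak 11. The 6 that touched neither had fold enrichments of 3.82 to 5.79, and the 16 that did had 3.17 to 7.54, so the ranges overlap. The unassigned list had a peak at 2 of the 6. With summits required within 100 bp the share fell to 45.5%, and with an overlap of 0.5 of both widths to 9.09%. The narrow peaks of replicate 3 can seldom cover 0.5 of the wider peaks they lie in, so the 9.09% follows largely from width.

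Replicate 1 had 19 of 24 peaks (79.2%, 57.8 to 92.9) in replicate 2 peaks, beside 76.9% of its list, which is near the background. Replicate 2 had 17 of 18 (94.4%, 72.7 to 99.9) in replicate 1 peaks, beside 62.9%. Sites shared between libraries chose the window, so this share is not independent of the choice. The 4 regions of replicate 1 alone had fold enrichments from 2.77 to 3.77, below the list median of 4.67.

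The IgG control gave fewer calls. Against IgG, replicate 2 had 5 peaks in the window, and each lay in a replicate 2 peak called against input. This made 5 of 18 (27.8%, 9.69 to 53.5), beside 14.0% of all replicate 2 peaks. The highest were 4.17 from 745468 to 746039, 4.12 from 770557 to 771081 and 3.48 from 739975 to 740337. Only the first 2 had a q of 0.05 or less, at a −log10 q of 1.49 each, beside 21.5% of the whole IgG list, and both lay in sites of all 3 libraries. The other 3 lay in sites without a replicate 3 peak. The IgG list of replicate 3 had 0 peaks here, but it held 1 peak in the whole genome.

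The list with no assigned library had a similar layout. It held 23 peaks with fold enrichments from 2.91 to 20.1 and a median of 8.92, against 6.39 over the whole list. Of these, 22 (95.7%, 78.1 to 99.9) touched replicate 1 or 2, beside 92.6% of the list, and the remaining one touched a replicate 3 peak. It had a peak at 17 of the 18 replicated sites and at all 10 sites of 3 libraries. Its highest values, 20.1 at both 745375 to 746219 and 776992 to 778355 and 18.1 at 769737 to 771398, lay in the 3 sites that were also highest in replicate 1. Its library is not named in the labels, so this list was counted as no further replicate.

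At the edges of the window, a strong block lay just outside. It ended 1578 bp before the window in replicate 1 (690712 to 693422, fold enrichment 16.8) and 1616 bp before it in replicate 2 (690562 to 693384, 44.4). The replicate 2 value is above every replicate 2 peak inside, while in replicate 1 the peak of 24.3 inside is higher. The nearest replicate 3 peak outside ended 2390 bp before the window, with 8.36, also above all 22 inside. The first peaks inside were those of the broad first site in replicates 1 and 2 and a peak of 4.45 from 695940 to 696191 in replicate 3. After the window the next peaks were 6911 bp away in replicate 1 (2.91), 29248 bp in replicate 2 (4.35) and 17748 bp in replicate 3 (4.00).

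The window was also set against a fixed grid of 19206 tiles of 100 kb that hold a peak summit of any list. The median tile held 1 replicate 1 peak, 2 replicate 2 peaks and 1 replicate 3 peak. At least as many peaks as the window were found in 12 tiles for replicate 1, in 41 for replicate 2 and in 6 for the unassigned list. The grid cuts across the window, and no such count is given for replicate 3, since that list chose the window. Shared sites of the libraries also chose it, so the replicate 1 and 2 counts are not independent of the choice. The unassigned list mostly repeats their peaks, with 92.6% of the whole list touching replicate 1 or 2.

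Another 3 runs of sites were compared with the run inside the window, which spans 68.3 kb from 711035 to 779341 and holds 16 sites. They are called by the genes known to lie there: HSD11B2 on chromosome 16 (67437576 to 67491246), the kallikrein (KLK) genes on chromosome 19 (51338363 to 51412835) and PPFIA2 on chromosome 12 (81909211 to 82000838). HSD11B2 encodes the enzyme that inactivates cortisol, the kallikreins include prostate-specific antigen, and PPFIA2 is a scaffold protein of the liprin family. Replicate 3 had 16 peaks in the 16p13.3 run, 0 in the HSD11B2 run, 4 in the KLK run and 4 in the PPFIA2 run. Sites of all 3 libraries numbered 8, 0, 4 and 3, of 16, 13, 17 and 30 sites. Over all 11 runs of at least 13 sites, the run with the next most replicate 3 peaks had 4. The window was chosen by this count, so the lead of its run in replicate 3 peaks was fixed in advance. Sites of all 3 libraries need a replicate 3 peak, so their number is not independent of the choice.

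Sites of the 16p13.3 run were spaced like those of the HSD11B2 and KLK runs, at 4.27 kb per site compared with 4.13 and 4.38, and more widely than those of the PPFIA2 run at 3.05. They filled 28.3% of their span, beside 31.4%, 53.9% and 51.5%. The median fold enrichment in the 16p13.3 run was 7.26 in replicate 1 and 12.1 in replicate 2. In the HSD11B2, KLK and PPFIA2 runs it was 3.88, 4.97 and 3.47 in replicate 1 and 6.92, 7.76 and 6.52 in replicate 2. The highest replicate 1 peak was 24.3 here and 10.1, 13.25 and 13.0 in the others, while the highest replicate 2 peak was 26.8 here and 30.6, 28.9 and 37.7 there. The highest unassigned peak was 20.1 here and 15.7, 19.7 and 23.0 there. In the unassigned list the medians were 9.75 here and 5.63, 8.93 and 5.60 there. Against IgG, replicate 2 had 5 peaks here and 2, 13 and 9 in the others. Against input it had 16 here and 14, 26 and 45 in the others. The highest peak against IgG was 4.17 here and 4.88, 4.70 and 5.94 there. The highest −log10 q against IgG was 1.49 here and 4.11, 2.49 and 5.84 there, so this run was the lowest of the 4 by both values. Peaks of 1 library are not replicates of a run, so these values stand side by side without a test. The 16p13.3 run was chosen by its replicate 3 peaks, so its medians are not independent of the choice. The run medians are over single peaks, and the like medians of the whole lists were 4.67 in replicate 1 and 6.50 in replicate 2. Values taken as the highest per site are another measure and run higher. Genome-wide their medians in replicates 1 and 2 were 10.6 and 17.3 at sites of all 3 libraries. At all replicated sites they were 5.83 and 9.37.

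**Figure D4:**
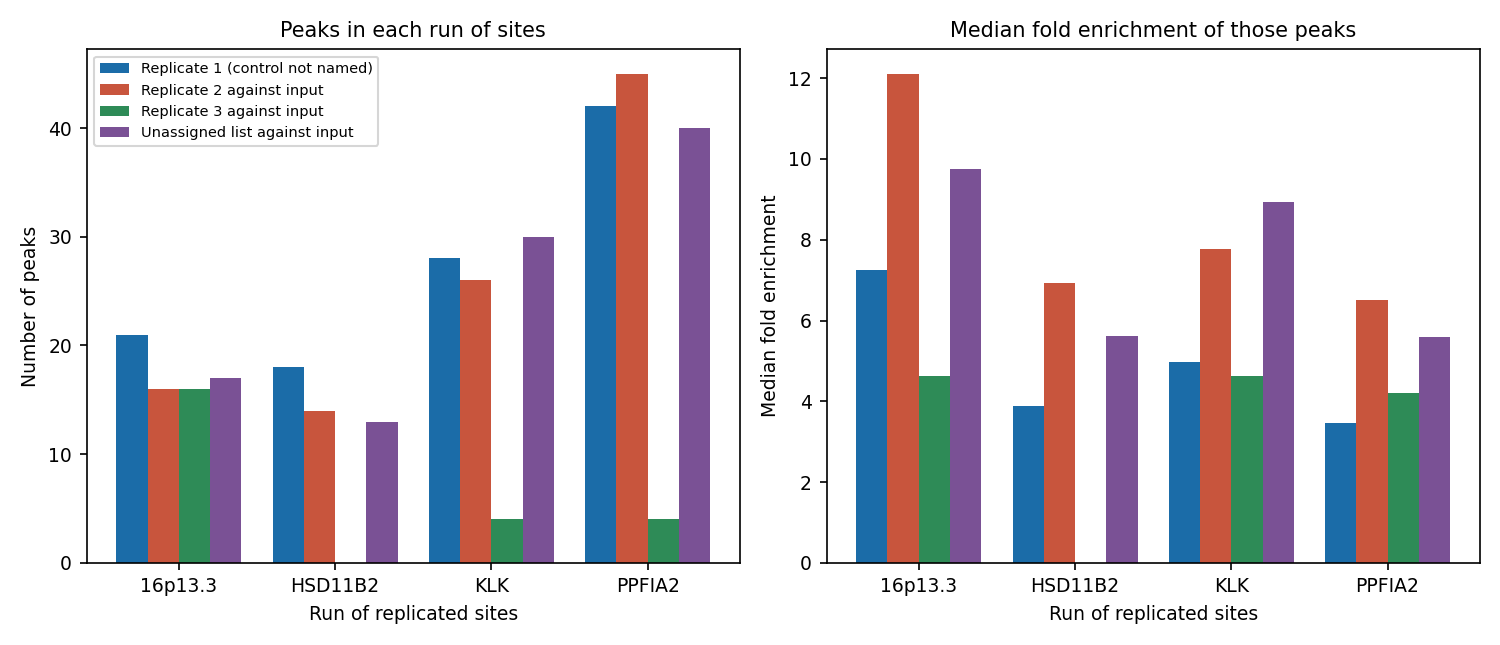
Bars give, for 4 runs of replicated sites, the number of peaks (left) and their median fold enrichment (right) in each of 4 lists. The 16p13.3 run, chosen by its replicate 3 peaks, has 16 of them while the others have 0 to 4. Its medians in replicates 1 and 2 are 7.26 and 12.1. A missing bar in the HSD11B2 run means 0 replicate 3 peaks.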

How the data were processed

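The measurements are ChIP-seq peak lists. MACS2, Bowtie2, BWA and CASAVA 1.4, and the builds hg19 and GRCh37, are named per the submitters' processing notes. Not given in the sources used here are their roles, the calling threshold, filters and any pooling. Each deposited peak has a fold enrichment (a ratio) at its summit and a −log10 p and −log10 q, as the authors' peak caller gave them. Starts were counted from 1.

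Peaks were matched by 1 bp of overlap in pandas 2.3.3 and NumPy 2.4.6 (Python 3.11.15), with exact (Clopper-Pearson) intervals from SciPy 1.17.1 and plots from matplotlib 3.10.9. Regions present in at least 2 libraries were stitched within 10 kb. The scripts were tested on simulated data: 3000 regions were recovered, and overlaps equalled those of bedtools 2.31.1 in 60 comparisons. Promoters are RefSeq, GRCh38.p14, searched for 11 motifs. No coordinate was carried between builds. No statistical test was made.

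The 10 genes, the window and the lists were chosen with earlier results of these data known. The 10 genes are given by name only, for want of gene coordinates on hg19. Named in full are all sites of 3 libraries, the 3 highest peaks of each list and, set beside them, 3 other runs. Alternatives changed the overlap, the q limit, the window rule and the replicates.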

Additional observations from a re-analysis of the deposited data

Results flagged for a closer look

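The list tied to no library was not used to build the merged regions, and it had 23 peaks in the window. No list from a control antibody was at hand to set beside them. Of the 23 peaks, 19 had a −log10 q of at least 5, and all touched a peak of replicate 1, 2 or 3.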

How the results depend on the processing

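Of 39 alternatives to 13 results, 29 stayed within 1.5 times the count or within the 95% interval of the share or median. At a −log10 q limit of 5, replicate 3 kept 2 peaks (median fold enrichment 7.32), the IgG list of replicate 2 kept 0, and sites of all 3 libraries fell to 2, which follows from the fewer peaks left. With a q of 0.05 or less the IgG list kept 2. An overlap of 0.5 of both widths left 0 sites of all 3 libraries and 9.09% of replicate 3 peaks shared. Replicate 3 peaks are much narrower than those of replicates 1 and 2, so these 2 values follow largely from width. Summits within 100 bp left 7 sites of all 3 libraries and 45.5% of replicate 3 peaks shared. Leaving out 1 replicate gave 11 to 17 replicated sites: 11 without replicate 1, 11 without replicate 2 and 17 without replicate 3. With the unassigned list in place of replicate 3, an alternative chosen after seeing the data, there were 17 replicated sites and 15 of all 3 lists. The unknown depth of the libraries limits every comparison of peak numbers between lists. No paired analysis was possible because no result comes from a test between groups.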
